A study of Mus musculus with 4 samples.

Results

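The Zfp genes are the mouse genes named Zfp followed by a number alone, which encode zinc finger proteins. The symbol rule found 306 of them among the 12967 gene symbols with values, and all 306 are annotated as protein-coding. It leaves out names with a letter after the number, such as Zfp36l1, and it takes in a few proteins that are not DNA-binding factors. RNA immunoprecipitation and sequencing was done on 4T1 cells, a mammary carcinoma line of BALB/c mice carrying a stable shRNA, either the control named shSCR or one named shCerS4 that targets the ceramide synthase CerS4. All cells grew under puromycin selection. From each line, polyadenylated RNA was sequenced after precipitation with an antibody against Caprin-1, a cytoplasmic RNA-binding protein, or with control IgG, so there were 4 libraries and 1 per group. With no replicate libraries, no difference was tested, and bracketed ranges are 95% intervals of a log2 ratio for counting error alone.

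Most Zfp genes encode proteins with an array of fingers, each built around a zinc ion held by cysteines and histidines, and many also carry a KRAB domain. KRAB zinc finger proteins bind DNA of transposable elements and imprinted regions, and their KRAB domain recruits the co-repressor TRIM28, which brings in the histone methyltransferase SETDB1 and HP1 proteins to form heterochromatin. The family has grown by tandem duplication, so many members lie side by side in arrays. Other members work outside DNA binding, in mRNA decay, ribosome maturation or ribosome quality control.

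The estimated depth ran from 19.7 M reads to 27.0 M reads per library. All 6 epithelial markers examined had values, with Epcam at 288 to 392 CPM and Krt8 at 868 to 2790 CPM. None of the 6 blood and endothelial markers had values, and of the fibroblast markers Pdgfra alone did, at 19.2 to 58.9 CPM. Cers4, the target of the knockdown, was not analysed here, so the knockdown itself was not checked.

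Zfp mRNAs made up a small share of each library, and a smaller one with Caprin-1 than with IgG. Their summed level was 7252 CPM (counts scaled to a common library total) with IgG and 5276 CPM with Caprin-1 in shSCR cells, and 7581 and 5950 CPM in shCerS4 cells. These are 0.725%, 0.528%, 0.758% and 0.595% of all counts. Both IgG libraries lay above both Caprin-1 libraries. The median mean level over the 4 libraries was 10.4 CPM for the 306 members and 30.2 CPM for all symbols. A mean of at least 5 CPM was reached by 215 members (70.3%) and by 10283 of all symbols (79.3%), and the counts below are over these 215. Among the 91 members below this level, 75 had a mean of 1 to 5 CPM and 16 a lower one. CPM is not corrected for transcript length, so levels of different genes are not ranked here.

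In shSCR cells, Zfp mRNAs were on the whole less represented with Caprin-1 than with IgG. Of the 215 members, 162 had a log2 ratio of Caprin-1 over IgG below 0, and 133 had an interval wholly below 0 against 27 wholly above. The median was −0.43 over the members and −0.132 over all 10283 symbols. Calls required a 2-fold or larger ratio with an interval that excluded 0. By this rule 39 members (18.1%) were lower with Caprin-1, where 13.0% of all symbols were, and 1 (0.465%) was higher, where 1.69% were. Libraries were scaled to their totals, so a ratio is relative to other mRNAs and says nothing of the amount of RNA precipitated. Trimmed-mean scaling moved the median of all symbols to 0.033 and that of the members to −0.27, with 30 members (14.0%) lower against 9.13% of all symbols.

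In shCerS4 cells the members lay on the same side. The median was −0.29 against −0.107 for all symbols, and 157 members were below 0. Called lower were 27 members (12.6%) against 8.02% of all symbols, and 1 member was called higher (0.465%) against 0.934%. Under trimmed-mean scaling the member median was −0.13 against 0.050, 16 members were lower (7.44%, against 5.01%) and 4 higher (1.86%, against 2.50%). Both cell lines called 17 members lower, which is 43.6% of the shSCR list and 63.0% of the shCerS4 list. For all symbols the shared lower genes were 52.4% and 84.8% of the 2 lists. No member had intervals on opposite sides of 0 in the cell lines, and 2.91% of all symbols did (299). These shares are not like for like, since wider intervals exclude 0 less often. The median one-sided width was 0.23 for members against 0.13 for all symbols in shSCR cells, and 0.21 against 0.13 in shCerS4 cells. The 2 cell lines have no library in common. Across the 215 members their ratios correlated with Pearson's r of 0.84, against 0.88 over all symbols, given as a description.

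**Figure D1:**
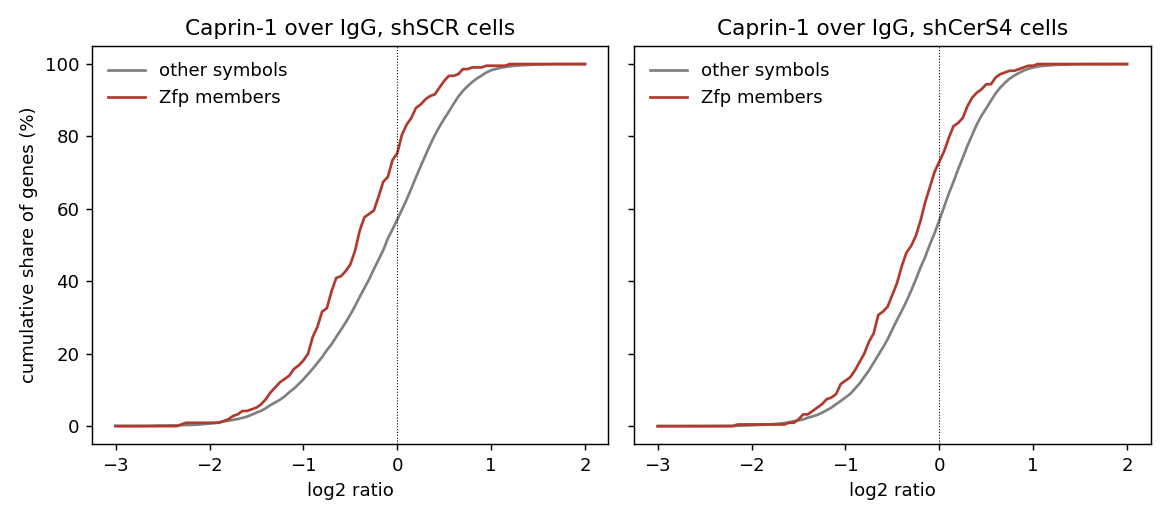
Cumulative share of genes (y axis, percent) up to each log2 ratio of Caprin-1 over IgG (x axis), for the 215 Zfp members and the other symbols that passed the 5 CPM filter. Over most of its range the member curve runs to the left of the other curve, with medians of −0.43 and −0.29, but in the lowest tail, which holds few members, the curves cross (0.465% against 0.864% at −1.65 in shCerS4 cells).

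In shSCR cells the lowest ratios were those of Zfp871, Zfp469, Zfp382, Zfp560 and Zfp704. Zfp871 (chr17:32765496-32788287, GRCm38) stood at 149 CPM with IgG and 29.7 CPM with Caprin-1 in shSCR cells, and at 97.9 and 34.7 CPM in shCerS4 cells. Both IgG values were above both Caprin-1 values, and the log2 ratios were −2.32 [−2.44, −2.21] in shSCR and −1.50 [−1.62, −1.38] in shCerS4 cells. Zfp469, whose human counterpart is mutated in brittle cornea syndrome, stood at 13.1, 2.70, 5.69 and 1.26 CPM. Here and below, 4 values run from IgG to Caprin-1 in shSCR cells and then from IgG to Caprin-1 in shCerS4 cells. Its ratios were −2.27 [−2.67, −1.9] and −2.16 [−2.80, −1.59], the lowest of the 215 in shCerS4 cells. Zfp704 stood at 52.8 and 15.4 CPM in shSCR and at 92.6 and 35.7 CPM in shCerS4 cells, with ratios of −1.78 and −1.38. These 3 mRNAs therefore held a smaller share with Caprin-1 in both cell lines.

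Zfp462 and Zfp609 were among the other members lower with Caprin-1 in both cell lines. Zfp462, which in mouse embryonic stem cells takes part in heterochromatin formation with the methyltransferases G9a and GLP, stood at 25.7 and 8.58 CPM in shSCR and at 38.7 and 12.5 CPM in shCerS4 cells, with IgG first. Its ratios were −1.58 [−1.81, −1.35] and −1.63 [−1.82, −1.43]. Zfp609, which works with the cohesin loader Nipbl in neural progenitors, stood at 54.2 and 16.9 CPM and at 63.2 and 21.7 CPM, with ratios of −1.68 and −1.54. In each of these genes the IgG value was about as high above the Caprin-1 value in one cell line as in the other. Zfp382 had ratios of −1.88 and −1.49 and Zfp442 of −1.76 and −1.51.

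Others were called lower in shSCR cells alone when transcripts were summed. Zfp106, an RNA-binding zinc finger protein needed for motor neuron maintenance in mice, stood at 242 and 96.7 CPM in shSCR and at 258 and 145 CPM in shCerS4 cells, with ratios of −1.32 [−1.39, −1.25] and −0.84 [−0.90, −0.77]. Zfp740 stood at 272, 123, 205 and 111 CPM, with ratios of −1.15 and −0.89, and trimmed-mean scaling took the shSCR ratio to −0.98, which ended the call. Zfp217, whose human counterpart is amplified in breast cancers, stood at 56.8 and 23.9 CPM in shSCR and at 47.8 and 29.8 CPM in shCerS4 cells, with ratios of −1.25 and −0.68. Zfp568, a KRAB protein that silences a placental promoter of Igf2 in mice, had ratios of −1.37 and −0.80, and Zfp318, which controls IgD expression in B cells, had −1.05 and −0.68, with −0.88 in shSCR cells under trimmed-mean scaling, where it was not called. Zfp516, an activator of the brown fat gene Ucp1, had −1.69 and −0.74. Most transcript values were not whole reads, so calls of a single transcript, here and below, are less certain than those of summed values. With the most abundant transcript alone, Zfp740 (−1.14), Zfp217 (−1.31) and Zfp568 (−1.53) were called lower in shCerS4 cells too. That these members passed 2-fold in one line and not in the other does not show that the lines differ. The difference itself is given further on.

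Zfp326, Zfp362 and Zfp526 passed 2-fold in shCerS4 cells alone. Zfp326, part of the DBIRD complex that links RNA polymerase II elongation to splicing, stood at 34.4, 28.7, 29.2 and 13.9 CPM in the order given above. The shCerS4 Caprin-1 library was the low one of the 4, and the ratios were −0.26 in shSCR and −1.07 in shCerS4 cells. Zfp362 had ratios of −0.56 and −1.16 and Zfp526 of −0.68 and −1.21. Under trimmed-mean scaling the shCerS4 ratios of Zfp326 and Zfp362 were −0.91 and −1.0, and neither was called.

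The 3 members of the role list that act at ribosomes had ratios on both sides of 0. None was called lower, but neither were most genes. Called lower were 13.0% of all symbols in shSCR and 8.02% in shCerS4 cells. Zfp622, whose yeast counterpart Rei1 acts in the last steps of large ribosomal subunit maturation, stood at 180 CPM with IgG and 213 CPM with Caprin-1 in shSCR cells. In shCerS4 cells it stood at 178 and 213 CPM, so its ratios were 0.24 [0.18, 0.30] and 0.26 [0.20, 0.32]. Zfp593, related to the yeast ribosome export factor Bud20, stood at 16.5 and 25.3 CPM and at 25.5 and 46.1 CPM, with ratios of 0.62 [0.43, 0.81] and 0.85 [0.70, 1.01]. Both Caprin-1 values of each gene were above the IgG value of the same line, and under trimmed-mean scaling Zfp593 passed 2-fold in shCerS4 cells at 1.01. Zfp598, the ubiquitin ligase that marks collided ribosomes, stood at 135, 112, 97.2 and 83.8 CPM, with ratios of −0.27 and −0.21.

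Zfp938 (chr10:82224850-82241280) was the member called higher with Caprin-1, in both cell lines. It stood at 2.32 and 5.31 CPM in shSCR and at 6.46 and 13.2 CPM in shCerS4 cells, with ratios of 1.18 [0.70, 1.70] and 1.03 [0.73, 1.34]. Its 2 transcripts ran opposite ways in shSCR cells, one from 2.26 to 0.42 CPM (log2 ratio −2.37) and the other, the more abundant, from 0.06 to 4.89 CPM (5.81), where the IgG value is below that of 3 reads (0.151 CPM). The more abundant transcript alone was not called in shCerS4 cells, at 0.997, and its difference between the lines was −4.81, called lower, against −0.16 for the sum. Zfp524 followed at 5.70 and 10.8 CPM and at 9.35 and 17.9 CPM, with ratios of 0.91 and 0.93, then Zfp688 (0.76 and 0.59), Zfp444 (0.68 and 0.64) and Zfp414 (0.68 and 0.38) by their shSCR ratio. In shCerS4 cells Zfp580 (0.84) and Zfp692 (0.73) were also among the 5 highest. In shSCR cells, however, Zfp692 was at 0.05, or −0.11 for its most abundant transcript alone. Apart from Zfp938 none of these passed 2-fold with library totals as scale, but under trimmed-mean scaling Zfp524 did in both lines, at 1.08 and 1.09, and Zfp580 did in shCerS4 cells.

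Members with a described role outside the extremes spread over the same range. Zfp91, a ubiquitin ligase of the alternative NF-kappaB pathway, stood at 229, 123, 279 and 154 CPM, with ratios of −0.89 and −0.86. Zfp148, which binds GC-rich promoters, had −0.95 and −0.82, Zfp24, needed for myelination, −0.79 and −0.69, and Zfp638, which in human cells helps to silence unintegrated retroviral DNA, −0.82 and −0.65. Zfp292 had −0.94 in each line. Zfp281, a regulator of pluripotency genes, had −0.83 and −0.23, Zfp346, a protein that binds double-stranded RNA, −0.54 and −0.62, and Zfp131 −0.45 and −0.51. All 8 had intervals below 0 in both lines and none passed 2-fold when transcripts were summed. With the most abundant transcript alone, Zfp346 was called lower in shSCR cells (−1.08) and turned to 0.17 in shCerS4 cells, Zfp24 turned to 0.10 in shSCR cells and was called lower in shCerS4 cells (−1.03), and Zfp638 turned to 0.60 in shCerS4 cells. Zfp335, Zfp219 and Zfp384 had smaller ratios, between −0.55 and −0.17, and Zfp263 had −0.41 (shSCR) and 0.05 (shCerS4). The most abundant transcript of Zfp384 alone turned to 0.14 in shCerS4 cells.

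Trimmed-mean scaling raises all Caprin-1 over IgG ratios together, so ratios close to 0 can change sign with it. Near or above 0 were Zfp207, a microtubule and kinetochore protein (165, 186, 126 and 132 CPM, ratios 0.17 and 0.06), Zfp64 (0.27 in each line), Zfp410, an activator of the chromatin remodeller gene Chd4 (0.07 and 0.27), and Zfp143, a factor of small nuclear RNA promoters (0.09 and 0.13). Zfp706 (0.01 and −0.15), Zfp503 (−0.09 and 0.01), Zfp330 (0.33 and −0.03) and Zfp830 (0.08 and −0.22) lay there too. With the most abundant transcript alone, Zfp330 turned to −0.24 in shSCR and 0.56 in shCerS4 cells, and Zfp410 to −0.11 in shSCR cells. Zfp36, which encodes tristetraprolin, the mRNA decay factor of AU-rich elements, stood at 14.3, 12.6, 14.8 and 11.2 CPM, with ratios of −0.18 [−0.41, 0.05] and −0.40 [−0.65, −0.16]. Zfp57, a KRAB protein that maintains imprints, stood at 10.2, 9.75, 6.60 and 8.35 CPM, with ratios of −0.07 and 0.34, which its most abundant transcript alone turned to 3.42 and −0.04. Zfp809, which silences murine leukemia virus in mouse embryonic cells, stayed under the 5 CPM filter at 4.64, 2.33, 5.998 and 3.32 CPM, with ratios of −0.99 [−1.48, −0.51] and −0.85 [−1.28, −0.43], and was called lower in shSCR cells by its most abundant transcript alone (−1.12).

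**Figure D2:**
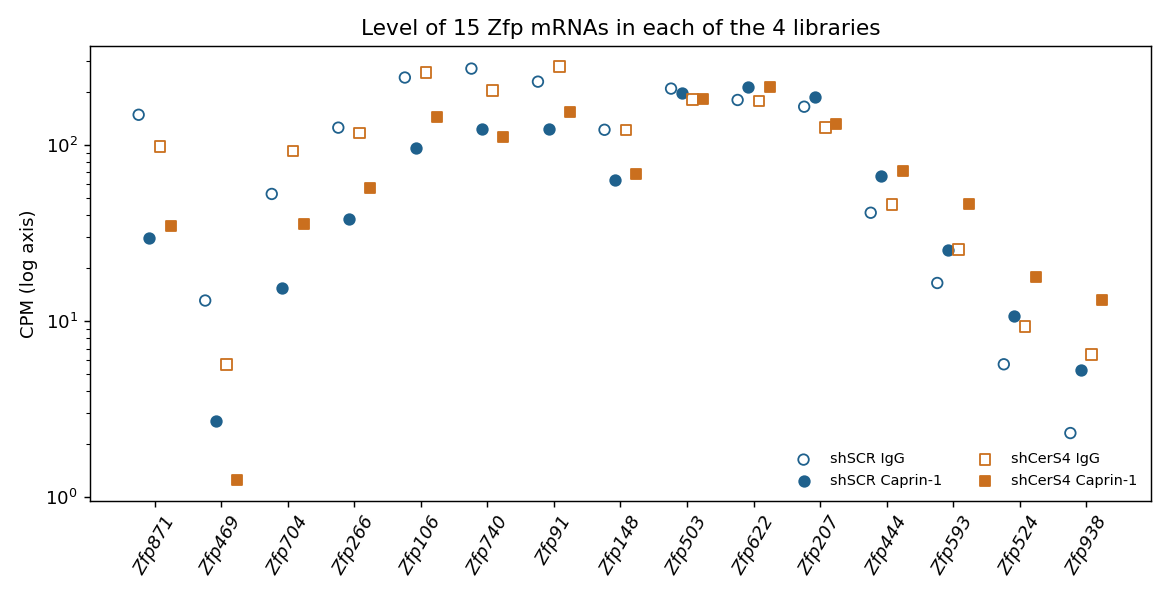
CPM on a log axis in each of the 4 libraries for 15 Zfp members, from those lower with Caprin-1 on the left to Zfp938 on the right. Open symbols are IgG and filled symbols Caprin-1, and 1 point is 1 library. Zfp871 falls from 149 to 29.7 CPM between the open and filled shSCR symbols, whereas Zfp622 goes from 180 to 213.

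**Figure D3:**
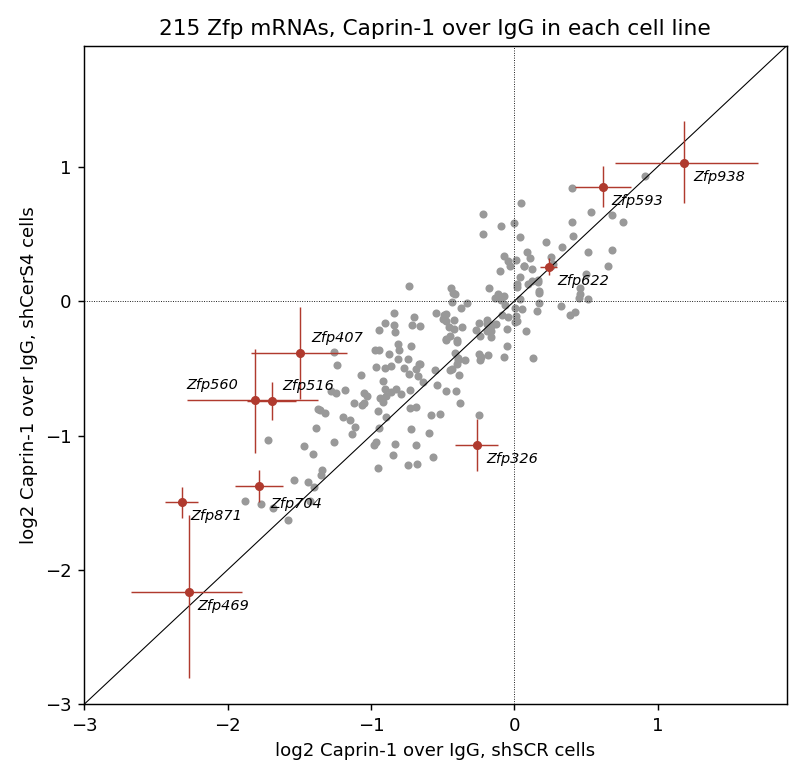
Log2 ratio of Caprin-1 over IgG in shSCR cells (x axis) and shCerS4 cells (y axis) for 215 Zfp members, with the line of equal ratios. Red points carry 95% counting intervals. Most members lie below 0 on both axes, and Zfp938 is the one past 1 on both.

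The ratio of Caprin-1 over IgG was lower for longer genes, and the members were set beside other genes of the same span. Members had a median annotated span of 16.4 kb and all symbols one of 23.5 kb, so they were the shorter group. The Spearman correlation of the ratio with span was −0.41 in shSCR and −0.39 in shCerS4 cells across the members, and −0.54 and −0.48 across all symbols, given as descriptions over genes of the same libraries. For genes of up to 10 kb, the median shSCR ratio was −0.09 over 43 members and 0.32 over 2469 other symbols. For 10 to 20 kb it was −0.40 over 85 members and 0.07 over 2014 others, and for 20 to 40 kb −0.47 over 58 members and −0.20 over 2269 others. The 14 members of 40 to 80 kb had −1.03 against −0.50, and the 15 longer ones −1.34 against −0.78. The members lay lower in each of the 5 classes in shCerS4 cells too, at −0.02, −0.21, −0.37, −0.77 and −0.82 against 0.23, 0.06, −0.14, −0.39 and −0.61. Transcript length was not used, since the values carry no transcript identifiers.

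**Figure D4:**
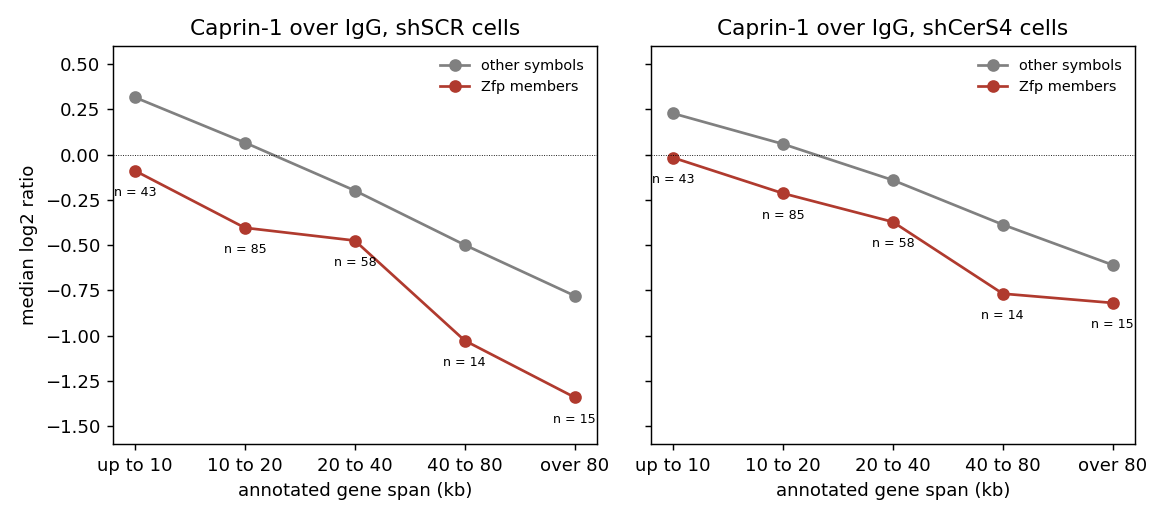
Median log2 ratio of Caprin-1 over IgG (y axis) by class of annotated gene span in kb (x axis) for Zfp members and the other symbols. Numbers under the red points give the members in the class. Members lie below the other symbols in each class, for example −0.40 against 0.07 at 10 to 20 kb in shSCR cells.

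The same held by level. In shSCR cells the 56 members with a mean of 5 to 10 CPM had a median of −0.40, where 907 other symbols had −0.22. From 10 to 20 CPM the medians were −0.46 and −0.15, from 20 to 50 CPM −0.48 and −0.18, and above these −0.32 and −0.07. In the class from 10 to 20 CPM, however, 10.9% of the members were called lower against 14.5% of the others. Among the 91 members under 5 CPM, 24 (26.4%) were called lower, close to the 26.5% of all 2684 symbols at such levels, and 3 (3.30%) were called higher against 9.13%. Their median was −0.48 against −0.41 for all symbols at such levels.

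Members came from 20 chromosomes, with 79 on chromosome 7 and 38 on chromosome 17. Neighbouring members at most 500 kb apart were joined into arrays, of which 9 held at least 5 members past the filter, and the ratios varied between arrays. The array on chromosome 9 from Zfp560 to Zfp846 (chr9:20345136-20605404) had the lowest median shSCR ratio, −1.40 over 5 members. Of these, 3 were called lower, where 13.0% of all symbols were, among them Zfp266 at 126 and 38.1 CPM. On chromosome 17, the 9 tested members from Zfp871 to Zfp414 (chr17:32765496-33631716) had a median of −0.72. The 12 from Zfp160 to Zfp13 on the same chromosome (chr17:21008941-23599755) had 0.08, the highest of the array medians, and none was called. The arrays not named here had medians from −0.86 to 0.02. In shCerS4 cells the medians of the 3 named arrays were −0.74, −0.49 and −0.08. The median spans were 26.4, 14.8 and 20.3 kb. Within an array the values were wide, from −2.32 for Zfp871 to 0.68 for Zfp414 at the ends of 1 array. Close paralogs can share reads, and their split between genes was not checked here. Of the 215 members, 75 overlap another annotated gene, and the strand of the reads is not given in the sources used here, so reads of such partners cannot be told apart. They include Zfp469, Zfp704, Zfp740, Zfp91, Zfp407 and the pair Zfp599 and Zfp809.

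Other families with the same kind of finger also had medians below 0. The 35 Zbtb genes had medians of −0.64 (shSCR) and −0.51 (shCerS4), against −0.132 and −0.107 for all symbols, and 9 (25.7%) and 8 (22.9%) of them were called lower against 13.0% and 8.02%. The 16 Zscan and Zkscan genes had −0.34 and −0.28, with 3 (18.8%) and 1 (6.25%) called lower, the latter under the share of all symbols. The 11 Klf genes had −0.55 and −0.36, with 2 (18.2%) called lower in each line. The difference between these families and the Zfp members was not tested, and these families were not set beside genes of the same span.

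The partners of KRAB proteins were described by a list of 30 co-repressor and heterochromatin genes, of which 28 passed the filter. Their median Caprin-1 over IgG ratio was −0.48 in shSCR cells, where 7 were called lower (13.0% of all symbols), and −0.46 in shCerS4 cells, where 5 were (8.02%), and none was called higher. Trim28 stood at 551, 568, 330 and 410 CPM, with ratios of 0.04 and 0.31, and Setdb1 at 51.9, 26.4, 54.5 and 36.9 CPM, with −0.98 and −0.56. The lowest was Cbx5, which encodes HP1 alpha, at 552, 151, 326 and 122 CPM, with ratios of −1.87 and −1.41. Dnmt3a, a DNA methyltransferase gene, had −1.39 and −1.21, Atrx −1.35 and −1.28, Chd3 −1.24 and −1.14 and Tasor, of the HUSH silencing complex, −1.42 and −1.02. Morc2a and Ehmt1 were called in shSCR cells, at −1.16 and −1.07. Dnmt3b and Atf7ip2 had means under 5 CPM, and Dnmt3b stood at −1.25 and −0.19.

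Next, shCerS4 cells were compared with shSCR cells in Caprin-1 precipitates, the main comparison of the study. Most Zfp mRNAs were within 2-fold, with a median log2 ratio of 0.24 against 0.146 for all symbols. Called higher in shCerS4 cells were 11 of 215 members (5.12%), where 6.25% of all symbols were, and called lower were 3 (1.40%), where 4.95% were. In IgG precipitates 2 members were higher (0.930%, against 5.69% of all symbols) and 2 lower (0.930%, against 5.34%), with medians of 0.09 and 0.102. The median in IgG turned to −0.01 under trimmed-mean scaling, where that of all symbols was 0.006. Across the members, Pearson's r between the ratios of both precipitates was 0.70, below the 0.89 over all symbols, again from separate libraries and as a description.

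Zfp932 and Zfp938 were higher past 2-fold in both precipitates. Zfp932 (chr5:109996502-110012266), which helps to repress endogenous retroviruses in mouse embryonic stem cells, stood at 3.78 CPM with IgG and 3.63 CPM with Caprin-1 in shSCR cells, and at 10.3 and 10.1 CPM in shCerS4 cells. Both shCerS4 libraries lay above both shSCR libraries, with ratios of 1.48 [1.14, 1.84] in Caprin-1 and 1.44 [1.06, 1.85] in IgG precipitates. Zfp938, at the levels given above, had ratios of 1.31 [1.03, 1.61] and 1.47 [0.98, 2.0]. In IgG precipitates its transcripts again moved in opposite directions, at −1.17 and 5.98, the latter from the same value below that of 3 reads, and with Caprin-1 both were higher, at 2.36 and 1.16.

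Zfp367 and Zfp469 were lower past 2-fold in both precipitates. Zfp367 (chr13:64133022-64153199) stood at 85.8 CPM in shSCR IgG and 35.4 in shCerS4 IgG, and at 45.5 and 21.0 CPM with Caprin-1. Its ratios were −1.11 [−1.26, −0.96] with Caprin-1 and −1.28 [−1.40, −1.15] with IgG. The 2 transcripts of Zfp367 moved in opposite directions. The more abundant had −1.64 with Caprin-1 and −1.49 with IgG. The other had 3.54, from 0.55 to 6.62 CPM, and 0.55, from 4.51 to 6.61 CPM. Zfp469 had −1.09 [−1.76, −0.48] and −1.20 [−1.54, −0.88]. In the co-repressor list, Uhrf1 and Dnmt1, which copy DNA methylation at replication, were the genes past the filter that were called lower, at −2.93 and −1.08 with Caprin-1 and −3.28 and −1.50 with IgG. They are 7.14% of the list, where 4.95% of all symbols with Caprin-1 and 5.34% with IgG were called lower. The median of that list was −0.06 with Caprin-1 and −0.19 with IgG, against 0.146 and 0.102 for all symbols.

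The windows around annotated start sites are shown for Zfp367, lower past 2-fold in both precipitates when summed over transcripts, and for Zfp932 and Zfp938, higher in both. These 3 genes were picked after the values were known. Zfp469, also lower past 2-fold in both, is not shown. Each window runs from 250 bases before to 50 bases after a RefSeq start, 5′ to 3′ (GRCm38.p6), and Zfp367 has a pair of separate starts. Zfp932 and Zfp938 each have another annotated start close by. Its window overlaps the one shown and is not printed. Its transcripts, which moved in opposite directions, cannot be matched to these starts, since the values carry no transcript identifiers. Capitals mark an E2F motif (TTTCGCGC or TTTGGCGC), a CRE (TGACGTCA) or an ETS motif (CCGGAAGT) on either strand.
Zfp367, chr13:64153150-64153449, minus strand: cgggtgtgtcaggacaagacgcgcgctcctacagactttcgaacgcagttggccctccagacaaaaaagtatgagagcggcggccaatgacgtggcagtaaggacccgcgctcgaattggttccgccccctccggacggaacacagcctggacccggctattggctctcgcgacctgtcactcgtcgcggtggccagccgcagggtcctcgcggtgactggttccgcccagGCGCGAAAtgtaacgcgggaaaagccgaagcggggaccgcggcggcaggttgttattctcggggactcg
Zfp367, chr13:64152324-64152623, minus strand: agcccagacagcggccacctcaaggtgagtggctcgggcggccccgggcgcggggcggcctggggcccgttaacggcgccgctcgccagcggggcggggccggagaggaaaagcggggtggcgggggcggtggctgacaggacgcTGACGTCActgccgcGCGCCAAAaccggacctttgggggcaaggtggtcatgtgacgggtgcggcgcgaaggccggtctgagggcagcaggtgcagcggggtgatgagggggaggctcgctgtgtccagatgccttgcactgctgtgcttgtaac
Zfp932, chr5:109996260-109996559, plus strand: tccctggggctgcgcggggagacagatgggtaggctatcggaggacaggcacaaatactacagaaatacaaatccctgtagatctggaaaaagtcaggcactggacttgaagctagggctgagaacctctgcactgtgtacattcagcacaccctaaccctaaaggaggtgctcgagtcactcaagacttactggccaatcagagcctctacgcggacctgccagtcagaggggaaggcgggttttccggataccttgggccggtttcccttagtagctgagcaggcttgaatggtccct
Zfp938, chr10:82241231-82241530, minus strand: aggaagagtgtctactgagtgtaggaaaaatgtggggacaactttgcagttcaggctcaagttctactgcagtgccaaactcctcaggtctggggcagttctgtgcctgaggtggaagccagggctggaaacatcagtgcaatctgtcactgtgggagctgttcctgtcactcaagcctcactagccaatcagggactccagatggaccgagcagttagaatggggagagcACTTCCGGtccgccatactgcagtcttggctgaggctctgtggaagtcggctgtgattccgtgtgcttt
The first Zfp367 window holds TTTCGCGC on the opposite strand, printed as GCGCGAAA, at bases 232 to 239. The second holds TTTGGCGC, printed as GCGCCAAA, at bases 161 to 168 and TGACGTCA at bases 146 to 153. The window shown for Zfp938 holds CCGGAAGT, printed as ACTTCCGG, at bases 232 to 239, and the windows of Zfp932 hold none of these. A window was available for 8292 of the symbols past the filter, 175 of them Zfp members. Either E2F spelling was rare, TTTCGCGC in 0.868% of all symbols and 0.571% of members and TTTGGCGC in 1.23% and 3.43%. Zfp367 was the single member with both, in separate windows, and 7 of all symbols had both. All windows of a symbol were searched together, so a symbol with more starts had more room for a match. TTTGGCGC stood in 6 of the 175 members, and whether either spelling goes with a lower ratio was not tested. TGACGTCA stood in 3.81% of all symbols and 3.43% of members, and CCGGAAGT in 10.4% and 13.7%. The motifs were searched after the values were known, together with the YY1 motif AAGATGGCG and its shorter form AAGATGGC (4.09% and 5.81% of all symbols, 4.57% and 6.29% of members), TATAAA (7.90%, 8.57%), TGACGTAA (1.11%, 1.71%), the ZNF143 motif (0.856%, 2.86%), CACGTG (12.5%, 6.29%), the NRF1 motif (2.52%, 5.14%) and CCAAT (43.5%, 49.7%). All were searched on both strands, and a match is a run of letters and not a shown binding site.

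Of the 11 members higher with Caprin-1 in shCerS4 cells, the other 9 were under 2-fold in IgG. Zfp704 stood at 1.21 [1.04, 1.38] with Caprin-1 and 0.81 [0.70, 0.92] with IgG. Zfp800 stood at 9.88, 6.25, 17.2 and 15.2 CPM in the order used above, with ratios of 1.28 and 0.80, and Zfp974 had 1.17 and 0.96, or 0.97 with Caprin-1 for its most abundant transcript alone. Zfp655 stood at 36.3, 19.8, 55.0 and 41.9 CPM, with 1.08 and 0.60, and was under 2-fold under trimmed-mean scaling at 0.98. The remaining members were Zfp157, Zfp810, Zfp317, Zfp28 and Zfp697, between 1.001 and 1.16 with Caprin-1 and between 0.48 and 0.70 with IgG. All 9 had IgG intervals above 0. Zfp326 was the third member lower with Caprin-1, at −1.05 [−1.24, −0.86], and stood at −0.24 [−0.40, −0.08] with IgG. Its transcripts differed, 1 at 28.3, 25.6, 17.0 and 7.88 CPM and the other at 6.19, 3.18, 12.2 and 6.03 CPM.

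Of Zfp703 and Zfp217, whose human counterparts are amplified in breast tumours, neither passed 2-fold. Zfp703 stood at 29.96, 25.2, 53.9 and 41.1 CPM. Both shCerS4 libraries were above both shSCR libraries, with ratios of 0.70 [0.56, 0.85] with Caprin-1 and 0.85 [0.70, 1.00] with IgG, under 2-fold. Zfp217 had 0.32 and −0.25. Among the IgG precipitates the next highest after Zfp938 and Zfp932 were Zfp974, Zfp651 (0.95) and Zfp599 (0.93), and the next lowest after Zfp367 and Zfp469 were Zfp41 (−0.94, and −1.04 under trimmed-mean scaling), Zfp382 (−0.82) and Zfp626 (−0.79). Zfp362 (−0.69) and Zfp511 (−0.54) followed Zfp326 at the low end with Caprin-1. Zfp207 had −0.50 and −0.39 and Zfp598 −0.41 and −0.47, while Zfp622 was at 0.00 and −0.02 and Zfp36 at −0.17 and 0.05.

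**Figure D5:**
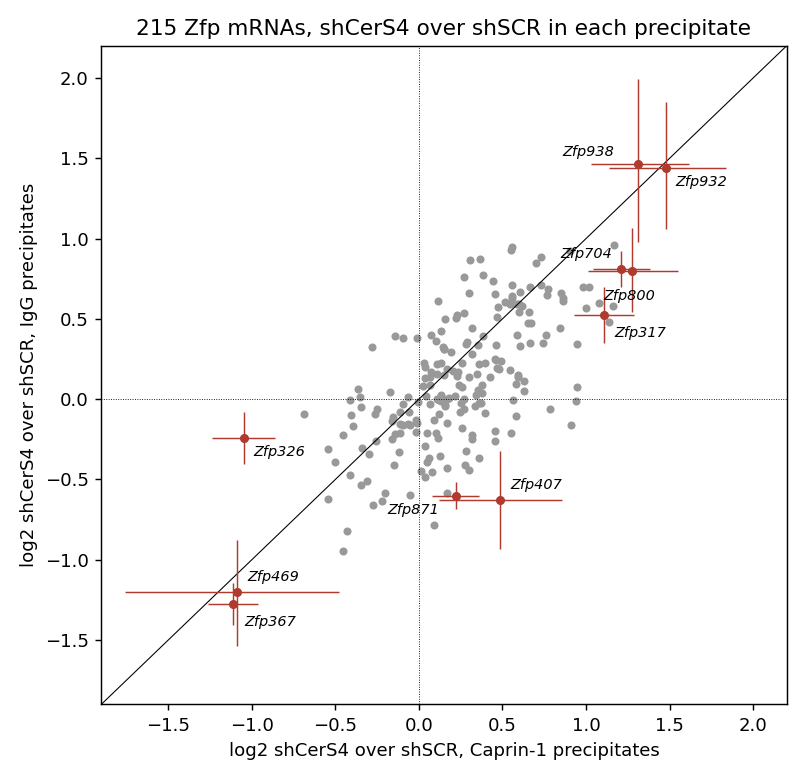
Log2 ratio of shCerS4 over shSCR in Caprin-1 precipitates (x axis) and IgG precipitates (y axis) for 215 Zfp members, with the line of equal ratios. Red points carry 95% counting intervals. Zfp932 and Zfp938 lie past 1 on both axes and Zfp367 and Zfp469 past −1 on both.

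The last comparison set the Caprin-1 over IgG ratio of shCerS4 cells against that of shSCR cells. The median difference, shCerS4 minus shSCR, was 0.12 over the members and 0.041 over all symbols, and 69 members (32.1%) had an interval above 0, near the 29.4% of all symbols, and 24 (11.2%) one below 0, where 20.9% of all symbols had. Called higher were 2 members (0.930%), where 0.632% of all symbols were, and called lower was none, where 0.350% were. These were Zfp407, at 11.7, 4.14, 7.57 and 5.797 CPM with a difference of 1.11 [0.65, 1.57], and Zfp560, at 7.56, 2.15, 6.76 and 4.05 CPM with 1.07 [0.50, 1.65]. In both, the shSCR Caprin-1 library was the lowest of the 4. Next came Zfp516 at 0.95 [0.73, 1.17], or 1.71 and called for its most abundant transcript alone, Zfp626 at 0.88 and Zfp97 at 0.87. Other named members were called by that transcript alone in either direction. Zfp638 (1.49) and Zfp346 (1.24) were higher, and Zfp24 (−1.13), Zfp57 (−3.46) and Zfp938 (−4.81) lower. The lowest differences were those of Zfp326 at −0.81 [−1.05, −0.56], Zfp763 at −0.60, Zfp362 at −0.59, Zfp689 at −0.56 and Zfp526 at −0.53. The co-repressor list had a median of 0.14, with no gene past the filter called and Dnmt3b, under it, at 1.06.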

How the data were processed

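RNA of 4 precipitates was sequenced, 1 library each for IgG and Caprin-1 from shSCR and shCerS4 cells. Reads were aligned with STAR in Partek to mm10, per the submitters' processing notes, with no versions given. The deposited values are CPM per transcript, although their name calls them raw counts. Each column held an added 0.0001 per row, which was subtracted, and then summed to the full CPM scale.

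The 24393 rows were summed per symbol, and 306 symbols matched the naming rule from 603 rows. The worth of 1 read was estimated from the spacing of the values. Of symbol values under 40 CPM, 79.8% to 81.2% lay within 0.05 reads of a whole number, so the reads are estimates. Of transcript values under 40 CPM 28.9% to 31.4% did, so most of these are not counts of whole reads. Counting intervals do not cover this, and calls of single transcripts are less certain than those of symbols. A total of 3 reads corresponds to 0.111 to 0.152 CPM. Log2 ratios had 0.5 reads added and library totals as scale. Intervals were exact binomial (Clopper-Pearson) for ratios and normal approximations for the difference. Reads after amplification are not independent molecules. The calculation was tested on simulated data (Python 3.11.15, scipy 1.17.1).

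Gene positions and start windows are RefSeq's (GRCm38.p6), where all 306 symbols matched. A further 66 annotated Zfp symbols were not analysed here. Planned classes by protein features were not made because no protein sequences were used here. Members, gene lists and tests were chosen with earlier results of these data known. Genes were named if they had a mean of at least 5 CPM and were among the 10 highest by mean CPM, the 5 highest or 5 lowest of a comparison, called in the difference or on a list of 37 members with a described role, of which 35 had values. From the co-repressor list, Trim28, Setdb1 and genes called were named. Other called members, and transcripts, were named after their values were seen. Alternatives were trimmed-mean or upper-quartile scaling, other level filters (1 CPM, 20 CPM or none), adding 5 reads, taking only the most abundant transcript, and calling without the interval.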

Additional observations from a re-analysis of the deposited data

Results flagged for a closer look

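In 9 of 215 members (4.19%) the shCerS4 over shSCR ratio had its interval above 0 in Caprin-1 precipitates and below 0 in IgG precipitates. No member had the reverse. Among all symbols 284 (2.76%) had the first pattern and 172 (1.67%) the reverse, and members and all symbols had about the same share with opposite sides in either order, 4.19% and 4.43%. With 1 library per group the difference was not tested. The difference of the log2 ratios was 1.11 for Zfp407 (0.48 with Caprin-1 and −0.63 with IgG), 0.82 for Zfp871 (0.22 and −0.60), 0.76 for Zfp629 (0.55 and −0.21), 0.73 for Zfp84 (0.36 and −0.37), 0.69 for Zfp266 (0.58 and −0.10) and 0.69 for Zfp692 (0.28 and −0.41). It was 0.60 for Zfp281 (0.17 and −0.43), 0.57 for Zfp217 (0.32 and −0.25) and 0.54 for Zfp275 (0.32 and −0.22). Under trimmed-mean and under upper-quartile scaling 5 of the 9 kept opposite sides, namely Zfp217, Zfp266, Zfp275, Zfp407 and Zfp629. With the most abundant transcript alone 5 did, namely Zfp275, Zfp281, Zfp407, Zfp629 and Zfp84.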

How the results depend on the processing

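Of 115 values recomputed under the alternatives, 74 were labelled as staying, 40 moved and 1 changed sign. A count stayed if within 1.5 times the reported count, and a median if within the usual interval of a single member. That interval is wide for a median over many members. By it, the shSCR median of Caprin-1 over IgG stayed although trimmed-mean scaling took it from −0.43 to −0.27. The 74 thus overstate how stable the medians were. The cause was not tested unless the setting itself changes how many members are counted. The median of shCerS4 over shSCR in IgG precipitates turned to −0.01 under trimmed-mean scaling; the other medians kept their sign under each alternative, and both scalings moved them towards 0, for Caprin-1 over IgG in shCerS4 cells from −0.29 to −0.13 (trimmed mean) and −0.14 (upper quartile). In the counts that follow, the share of all symbols called under the same setting stands in brackets. Caprin-1 over IgG in shSCR cells had 2 members higher under trimmed-mean scaling (4.15%), upper-quartile scaling (4.48%) and 1 CPM (2.26%), 4 with no filter (3.23%), 0 at 20 CPM (1.46%) and 3 with the most abundant transcript (2.64%); lower were 63 with no filter (20.6% of members, 15.8%) and 19 at 20 CPM (20% of members, 12.1%). In shCerS4 cells 4 were higher under trimmed-mean scaling (2.50%), 2 under upper-quartile scaling (2.36%), 3 at 1 CPM (1.62%) and with no filter (2.75%), 0 at 20 CPM (0.686%) and with 5 reads added (0.875%) and 4 with the most abundant transcript (1.80%); lower were 16 under trimmed-mean scaling (5.01%), 17 under upper-quartile scaling (5.22%), 43 with no filter (14.1% of members, 10.5%) and 12 at 20 CPM (12.6% of members, 7.39%). For shCerS4 over shSCR with Caprin-1, of 290 members at 1 CPM 22 were higher (8.17%) and 8 lower (6.06%), of 306 with no filter 25 (9.82%) and 9 (7.15%), of 95 at 20 CPM 3 were higher (4.57%), and of 204 with the most abundant transcript 17 were (7.24%). With IgG the counts over the same members were 15 (7.64%) and 8 (6.66%), 19 (9.54%) and 12 (9.11%), 0 (3.84%) and 1 (4.37%), and 11 (7.21%) and 5 (6.69%). For the difference of ratios they were 8 (1.98%) and 8 (1.53%), 12 (3.51%) and 9 (2.39%), 0 higher at 20 CPM (0.104%), and 14 (2.76%) and 5 (1.73%) with the most abundant transcript, where the 14 are 6.86% of members. With that transcript alone, 23 of 325 calls of the 65 named members changed, in 13 of them, and 8 turned sign for Caprin-1 over IgG in at least 1 cell line. Named members with 1 transcript could not change, and 158 of all 306 members have 1. The 325 thus overstate the calls that were open to change. Dropping the interval changed none of the member counts, so the 10 values of that setting, which are among the 74, say nothing of stability. No paired analysis was possible because each group has 1 library. Members' intervals had a median one-sided width of 0.23 for Caprin-1 over IgG in shSCR cells and 0.30 for the difference, against 0.13 and 0.19 over all symbols, so small differences are less well resolved for Zfp members.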
